A study of Mus musculus with 4 samples.

Results

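The response described here is that of Jmjd3-/- macrophages, called knockout, to lipopolysaccharide (LPS), a cell wall component of Gram-negative bacteria. It was read as the array of LPS-treated knockout cells minus the array of unstimulated knockout cells, 2 of the 4 arrays of the study. A gene counted when its brightest 1-gene probe set, by the mean of the 4 arrays, reached log2 6 on the higher of the 2 knockout arrays. This floor kept 9122 of 18193 genes. The study cultured bone marrow from mice of both genotypes with the macrophage growth factor M-CSF for 5 days, and the LPS groups then received 100 ng/ml of it over 4 h. Both knockout groups thus shared the Jmjd3-/- genotype and the M-CSF culture and differed by the LPS treatment. Wild-type cells, unstimulated or given the same LPS dose for the same time, serve as a side-by-side reference. RNA of each culture was hybridised to an Affymetrix mouse array, with 1 array per group. No difference between arrays therefore has a replicate check, no test was made, and differences are given as sizes on the log2 scale. The sources used here do not give which stretch of Kdm6b was removed, how many animals were used or whether the cells of the groups came from separate animals. In such bulk RNA, fewer cells of a type and less RNA per cell cannot be told apart.

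LPS is sensed by Toll-like receptor 4 with its co-receptors, and the signal divides into a branch through the adaptor MyD88 and a branch through the adaptor TRIF. The first leads to NF-kB and AP-1, transcription factors of inflammatory cytokine and chemokine genes. The second leads to interferon regulatory factors and interferon beta, which acts back on the cells through JAK kinases and STAT factors to switch on interferon-stimulated genes. Jmjd3, the product of Kdm6b, removes methyl groups from lysine 27 of histone H3, a mark laid down by Polycomb complexes, and Kdm6b itself is known as an LPS-inducible gene of macrophages.

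The 4 arrays were close in overall level, with medians between 4.15 and 4.24, and between 32.1% and 34.5% of probe sets reached log2 6. All 18 measured macrophage markers were past the floor in the knockout. Csf1r, the M-CSF receptor, read 13.12 unstimulated and 12.16 with LPS, and Adgre1, which encodes F4/80, read 11.82 and 11.84. Kdm6b did not settle the genotype label. Its brightest probe set, an x_at set that may bind related transcripts, read 9.82 and 10.82 in the knockout and 10.33 and 11.23 in wild type. A dimmer one read 5.35 and 6.07 in the knockout, and the dimmest read 3.22 and 2.91. The LPS differences of these 3 probe sets in the knockout were 1.01, 0.72 and -0.31.

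Both knockout arrays stood apart from the wild-type arrays in markers of other cells. The mean level of 14 granulocyte and precursor markers was 10.14 without and 10.01 with LPS in the knockout, against 5.75 and 6.40 in wild type. For 25 stromal markers the means were 10.00 and 9.92, against 5.72 and 6.13. S100a9, a neutrophil calcium-binding protein, read 13.44 and 13.51 in the knockout and 7.44 and 8.15 in wild type, and Mpo, the myeloperoxidase of granulocyte precursors, read 11.64 and 11.02 against 4.65 and 4.16. Col1a1, a fibroblast collagen, read 12.35 and 11.87 against 5.84 and 6.30. These markers were thus high on both arrays of the knockout response and differed little between them. The median LPS difference in the knockout was -0.04 over the 14 granulocyte and -0.16 over the 25 stromal markers. One stromal marker was 2-fold or more higher with LPS, Vcam1, an adhesion molecule that macrophages also express, by 2.30 in each genotype. One granulocyte marker was 2-fold or more lower, the collagenase gene Mmp8, which read 8.71 and 7.14. The part of these cells' RNA in the responses below was not tested. Markers of T, B and NK cells and of mast cells, basophils and eosinophils were mostly under the floor, with 4 of 18 and 3 of 16 past it. For dendritic cells 6 of 14 were past it, and for erythroid cells and megakaryocytes 6 of 14. Cd3e, Cd79a, Zbtb46, Alas2 and Fcer1a, which help define these cells, were under the floor on both knockout arrays. Other members were not: the B cell genes Ebf1 and Ighm read 8.53 and 7.73, and 8.77 and 8.94, and Cd79b 7.16 and 5.05. In wild type Ebf1 read 4.78 and 4.42, Ighm 5.80 and 6.59 and Cd79b 4.29 and 3.96. The dendritic cell list's Itgax, Tcf4 and Fscn1, which macrophages can also express, read 9.90, 10.90 and 11.42 unstimulated in the knockout. In the erythroid and megakaryocyte list Pf4 read 12.66 and 12.47 in the knockout and 12.85 and 12.50 in wild type. Ppbp of that list read 7.69 and 7.98, against 10.78 and 9.08. Hdc of the mast cell, basophil and eosinophil list read 5.86 and 10.44, against 6.07 and 9.53.

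**Figure D1:**
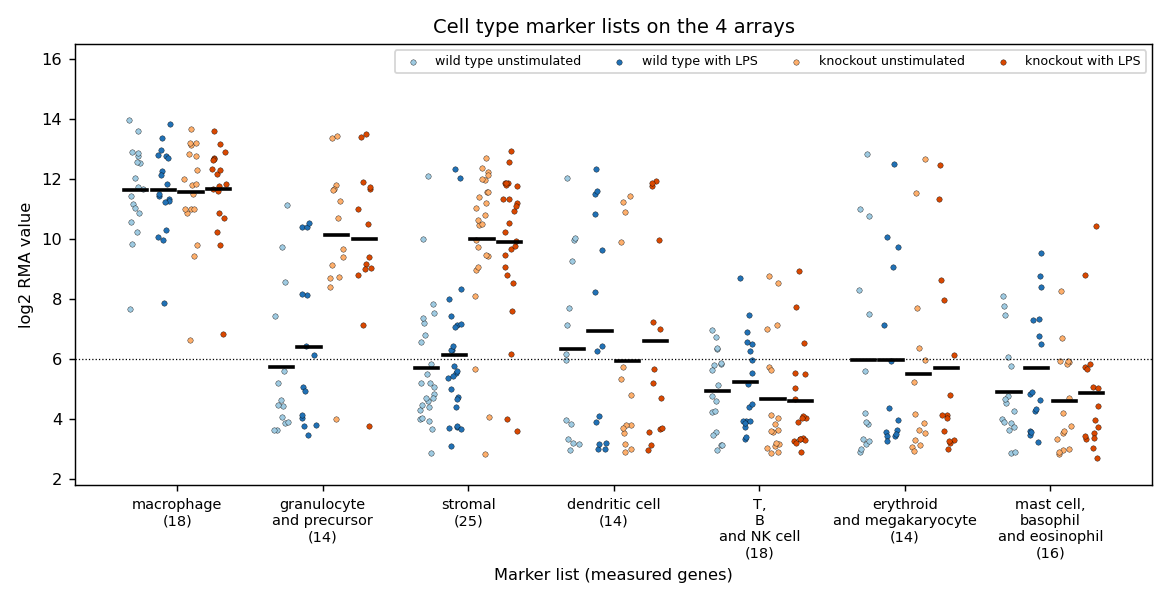
Log2 RMA values of the measured genes of 7 marker lists (number of genes in brackets), with 1 point per gene and array and black bars at the mean of each array; the dotted line marks the floor of log2 6. The granulocyte and stromal means lie near 10 on both knockout arrays and between 5.72 and 6.40 on the wild-type arrays, whereas the macrophage means lie between 11.56 and 11.66 on all 4.

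A gene is called higher or lower here when the 2 arrays differ by 2-fold or more. With LPS, 1006 of the 9122 genes (11.0%) were called higher in the knockout and 1415 (15.5%) lower. These shares of all genes are the reference for the counts of each gene list below. Large differences were mostly increases. At 8-fold or more there were 216 higher and 56 lower genes, and at 16-fold or more 105 higher and 10 lower. The median difference of all 9122 genes was -0.26, with quartiles of -0.71 and 0.24. Subtracting that median turned the numbers to 1254 higher and 951 lower, so which direction holds more genes depends on where the scale is centred. Of the genes called higher, 262 (26.0%) read under the floor unstimulated, and of those called lower, 528 (37.3%) read under it with LPS. Where 1 of the arrays was under the floor, the size of the difference rests on a background reading. Just inside the floor, 133 genes up to 0.1 above it had a median absolute difference of 0.59, and just outside, 106 genes up to 0.1 below it also had 0.59.

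Further probe sets of the same genes gave a check within the same RNA. Only those that reached the floor on the higher of the knockout arrays entered. Dimmer probe sets of the same genes were thus left out, a choice that can favour agreement, and the shares below do not cover them. Of 623 additional probe sets of the genes called higher, 538 (86.4%) were called higher as well and 98.2% had the same sign. For genes called lower it was 441 of 633 (69.7%), with 97.9% of the same sign. Among 4486 additional probe sets of genes called neither way, 12.8% differed by 2-fold or more.

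Wild-type counts are given over the same genes, so a gene past the floor in wild type alone is left out of them. In wild type, 807 (8.85%) of the 9122 genes were called higher with LPS and 1281 (14.0%) lower. The genes higher in both numbered 651, which is 64.7% of the knockout set and 80.7% of the wild-type set. Those lower in both numbered 865, 61.1% and 67.5%. The knockout difference lay above the wild-type one for 47.7% of all genes, and for 798 (79.3%) of those called higher in the knockout, a share that the choice by the knockout difference favours. The genes called higher had a median level of 7.44 unstimulated and 9.69 with LPS in the knockout, and of 7.98 and 9.71 in wild type. Their median level with LPS was thus nearly the same in both genotypes, and the unstimulated one was lower in the knockout. The choice by the knockout difference also favours a low unstimulated reading in the knockout. Whether any single response differed between the genotypes was not tested.

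**Figure D2:**
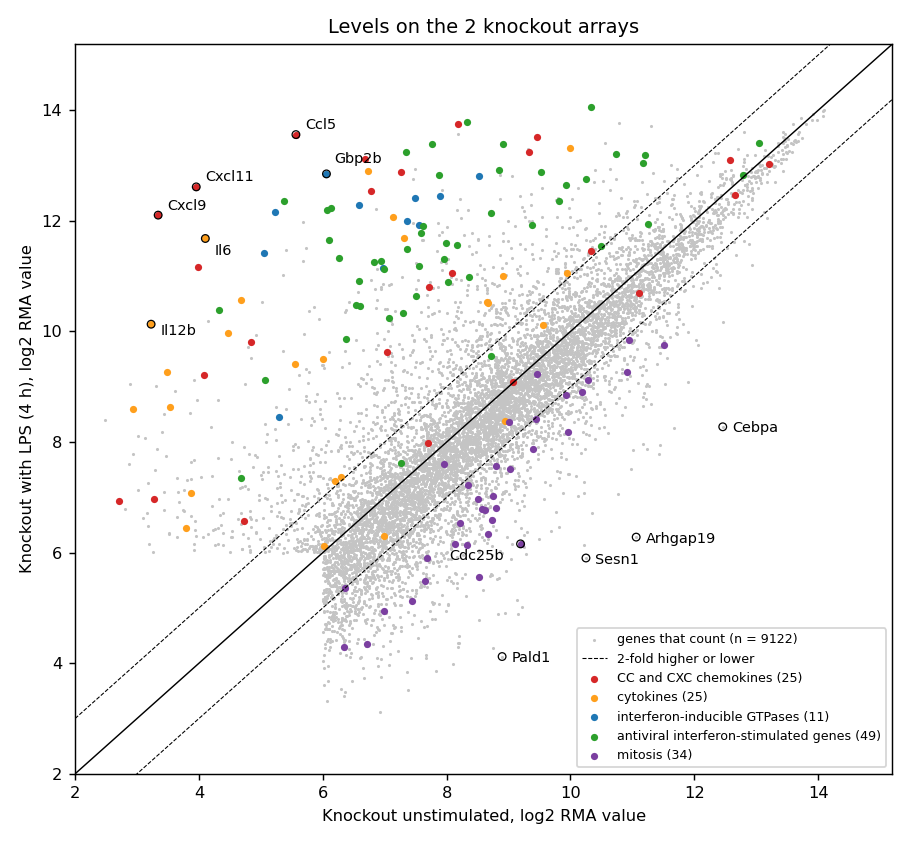
Levels of the 9122 genes on the 2 knockout arrays, unstimulated (x) and with LPS for 4 h (y), as log2 RMA values; dashed lines mark 2-fold and colours mark 5 gene lists. Chemokines, cytokines and both interferon lists lie mostly above the upper dashed line, as with Cxcl9 at 3.34 and 12.10, and mitosis genes lie mostly under the lower one, as with Cdc25b at 9.19 and 6.16.

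The LPS receptor and its adaptors had a high level on both knockout arrays and small differences. Of 19 genes past the floor 4 (21.1%) were called higher and none lower, against 11.0% and 15.5% of all genes, with a median of 0.40. Myd88, the adaptor of the first branch, read 8.64 unstimulated and 10.80 with LPS, a difference of 2.15, and Ticam1, which encodes TRIF, read 6.07 and 7.24. Ikbke, a kinase that acts on interferon regulatory factors, differed by 1.90, and Irak3, an inhibitory member of the IRAK family, by 1.24. Tlr4 itself read 9.24 and 8.69, and its co-receptor gene Cd14 11.83 and 12.68. In wild type 6 of the 19 were called higher, and Irak3 (1.93) and Cd14 (1.54) had larger differences there.

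Among 17 other pattern receptors 6 (35.3%) were called higher and 3 (17.6%) lower, against 11.0% and 15.5% of all genes. Clec4e, the lectin receptor Mincle, read 7.87 and 11.97, Tlr3, a sensor of double-stranded RNA, 8.86 and 12.40, and Nod1, a sensor of bacterial cell wall fragments, 7.53 and 10.93. Tlr2, a lipoprotein receptor, and Tlr6, its partner, differed by 1.68 and 1.45, and Cgas, the cytosolic DNA sensor, by 1.47. The lower genes were Clec4n, the lectin receptor Dectin-2 (-1.91), Tlr13, a sensor of bacterial ribosomal RNA (-1.91), and Mavs, the adaptor of the cytosolic RNA sensors (-1.19). Clec4n started from 8.09 in the knockout and from 12.80 in wild type, so its LPS difference began at unlike levels.

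NF-kB genes were higher as a group: 13 of 20 were called higher and none lower, with a median of 1.78 and the lowest value at 0.30. Traf1, an adaptor of TNF receptors, read 5.67 unstimulated and 11.27 with LPS, and Rel, a subunit of NF-kB, read 5.45 and 8.96. Tnfaip3, which encodes the feedback inhibitor A20, differed by 3.61, the inhibitor gene Nfkbie by 3.18 and the subunit gene Nfkb2 by 2.97. Nfkbia, the main inhibitor, was already at 12.80 unstimulated and read 13.62 with LPS. The wild-type count was also 13 and none, with a median of 1.38.

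Of 22 AP-1 and immediate early genes 6 (27.3%) were called higher and 1 (4.55%) lower, against 11.0% and 15.5% of all genes. Batf2 read 4.79 and 9.72 and Batf 6.03 and 9.33, both encoding AP-1 family members. Mafk (1.94) and Junb (1.37) were also higher, and Mafg (-1.53) was the lower one. Fos, at 12.10 and 11.91, and Jun, at 10.71 and 10.04, differed by less than 2-fold in the knockout, and by -1.94 and -1.48 in wild type. Myc, a growth regulator, read 7.54 and 8.87 in the knockout and went from 8.72 to 6.66 in wild type, so the 2 responses had opposite signs.

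Feedback genes of cytokine and MAP kinase signals were called higher in 12 of 22 cases (54.5%) and lower in 2 (9.09%). The shares of all genes were 11.0% and 15.5%. In wild type the counts were 9 and 6. Usp18, which removes ISG15 and restrains interferon receptors, read 7.49 and 12.94. Dusp2, a MAP kinase phosphatase, read 4.84 and 9.53, and Socs3, a suppressor of cytokine receptors, 7.46 and 11.96. Cish, another SOCS family gene, read 3.75 and 7.13 in the knockout and 8.65 and 9.43 in wild type. The lower genes, Zfp36l2 (-2.30) and Zfp36l1 (-1.38), encode proteins that speed mRNA decay.

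Cytokine genes held some of the highest differences. Of 25 past the floor 21 were called higher and none lower. The median was 3.32, and 2.93 over all 28 measured genes, against -0.26 for all genes past the floor. In wild type 19 of these 25 were called higher and none lower, with a median of 2.84, and of 2.94 over all 28 measured. The medians over all measured cytokine genes were thus nearly equal in the 2 genotypes. Il12a, Il23a and Csf3 were left out of the counts because they stayed under the floor on both knockout arrays. Their wild-type differences were 4.37, 3.06 and 2.82, against 1.64, 0.96 and 0.21 in the knockout. Il6, an inflammatory cytokine, read 4.10 unstimulated and 11.68 with LPS, and Il12b, a subunit of interleukins 12 and 23 that drives T helper responses, read 3.23 and 10.13. Both started under the floor, and both had larger differences in wild type, 8.32 and 7.95. Il1b, the pyrogenic cytokine, read 6.72 and 12.91 in the knockout and 10.09 and 13.63 in wild type. Its difference was thus 6.18 against 3.54, with a lower unstimulated start in the knockout. Il1a had the same shape, from 3.48 to 9.27 against 6.97 to 10.00. Tnfsf10, the death ligand TRAIL, read 4.68 and 10.56. Ifnb1, which encodes interferon beta, read 3.54 and 8.63 in the knockout and 3.76 and 8.44 in wild type, so its 2 responses were of similar size, 5.09 and 4.68. Tnf read 7.13 and 12.06, and Il10, an anti-inflammatory cytokine, 4.48 and 9.97. Inhba, a subunit of activin A, read 9.56 and 10.12, a difference of 0.56 where wild type had 2.84. Transforming growth factor gene Tgfb1 (-0.57) and Il16 (-0.68) were at the low end.

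The promoters of several of these genes hold an NF-kB element. The 5 stretches shown were picked from genes with large differences that hold it, and each shows the match nearest the start. The element was searched as a pattern of letters, some of them variable, on both strands. The window was the 250 bases before the start in RefSeq promoters of GRCm38.p6. The element was present in 4.46% of the 27025 genes with a promoter entry, in 5.42% of 7454 past the floor, in 8.66% of 808 called higher and in 4.69% of 1172 called lower. It was present in 5 of 20 cytokine genes, 6 of 18 chemokine genes and 8 of 17 NF-kB genes with an entry. Capitals mark the match, which begins 44 bases before the start in Il6, 103 in Cxcl10, 72 in Cxcl3, 116 in Ifnb1 and 80 in Ccl20. The stretches lie at chr5:30013055-30013094 on the plus strand, chr5:92348968-92349007 on the minus strand, chr5:90786014-90786053 on the plus strand, chr4:88522886-88522925 on the minus strand and chr1:83116671-83116710 on the plus strand, in that order. Each is printed 5′ to 3′ on the strand of its gene. A match describes letters and is not a measured binding site.
Il6: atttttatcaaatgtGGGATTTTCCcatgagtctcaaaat
Cxcl10: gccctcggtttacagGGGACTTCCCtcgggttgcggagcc
Cxcl3: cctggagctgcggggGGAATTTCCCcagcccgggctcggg
Ifnb1: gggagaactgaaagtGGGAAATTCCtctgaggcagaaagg
Ccl20: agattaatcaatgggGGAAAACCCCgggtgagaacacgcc

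Inflammatory effector genes were called higher in 25 of 28 cases, with none lower and a median of 3.39, against 24 higher and 1 lower with a median of 1.74 in wild type. Acod1, the enzyme that makes itaconate, read 6.39 and 13.21 in the knockout and 11.55 and 13.32 in wild type. Cfb, complement factor B, read 5.41 and 11.48, against 10.93 and 12.62. Both thus reached a high level with LPS in each genotype and started far lower in the knockout. Ch25h, which makes 25-hydroxycholesterol, read 5.68 and 11.98, and Upp1, uridine phosphorylase, 3.91 and 9.11. The knockout differences were smaller than the wild-type ones for other effectors. Nos2, inducible nitric oxide synthase, read 3.14 and 8.08, a difference of 4.94 against 7.12. Hamp, the iron regulator hepcidin, differed by 5.07 against 6.39, and Ptgs2, cyclooxygenase 2, by 1.55 against 3.80, from 11.15 to 12.70 in the knockout. Lcn2, an iron-binding protein that neutrophil granules also hold and a member of the granulocyte list, read 11.27 and 11.90 in the knockout and 5.22 and 10.42 in wild type. Arg2, mitochondrial arginase, differed by -0.86 in the knockout and by 1.62 in wild type.

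Chemokines gave the highest single values of the response. Of 25 past the floor 19 were called higher and none lower, with a median of 3.91 and of 3.09 over all 29 measured. In wild type 13 were higher and 1 lower, with a median of 1.05. Cxcl9, which attracts T cells, read 3.34 unstimulated and 12.10 with LPS, the largest difference of all 9122 genes at 8.76. Cxcl11, a ligand of the same receptor, read 3.96 and 12.62. Ccl5 read 5.57 and 13.56, and Ccl22, which attracts regulatory T cells among others, 3.98 and 11.17. The wild-type levels with LPS were near those of the knockout for Ccl5 (13.57) and Cxcl9 (11.36), and the unstimulated ones far above, at 10.03 and 7.69.

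Among chemokines that attract monocytes, Ccl12 read 6.68 and 13.12 in the knockout and 10.49 and 12.16 in wild type. Ccl7 read 6.78 and 12.53, and Ccl4 7.27 and 12.89. Over the 25 genes the median level was 7.27 unstimulated and 11.45 with LPS in the knockout, and 10.49 and 12.09 in wild type. The knockout difference lay above the wild-type one in 23 of the 25, by log2 1 or more in 17. That compares with 47.7% of all genes and with the 79.3% of genes called higher in the knockout, the class that holds 19 of the 25. Ccl8 read 7.04 and 9.62 against 11.04 and 11.13, and so stayed lower than in wild type on both knockout arrays. The neutrophil-attracting Cxcl3 and Cxcl1 did not share a pattern: Cxcl3 read 4.09 and 9.21 against 10.98 and 12.03, and Cxcl1 read 7.71 and 10.80 against 7.94 and 12.09, the larger difference being the wild-type one (4.15). Ccl20 read 3.27 and 6.97, and stayed under the floor in wild type at 3.46 and 3.99. At the other end, Ccl6 (-0.17), Pf4 (-0.18) and Cxcl14 (-0.40) were bright and differed little. Cxcl12, a stromal chemokine that also stands in the stromal list, read 9.07 and 9.09 in the knockout and 3.95 and 3.69 in wild type.

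**Figure D3:**
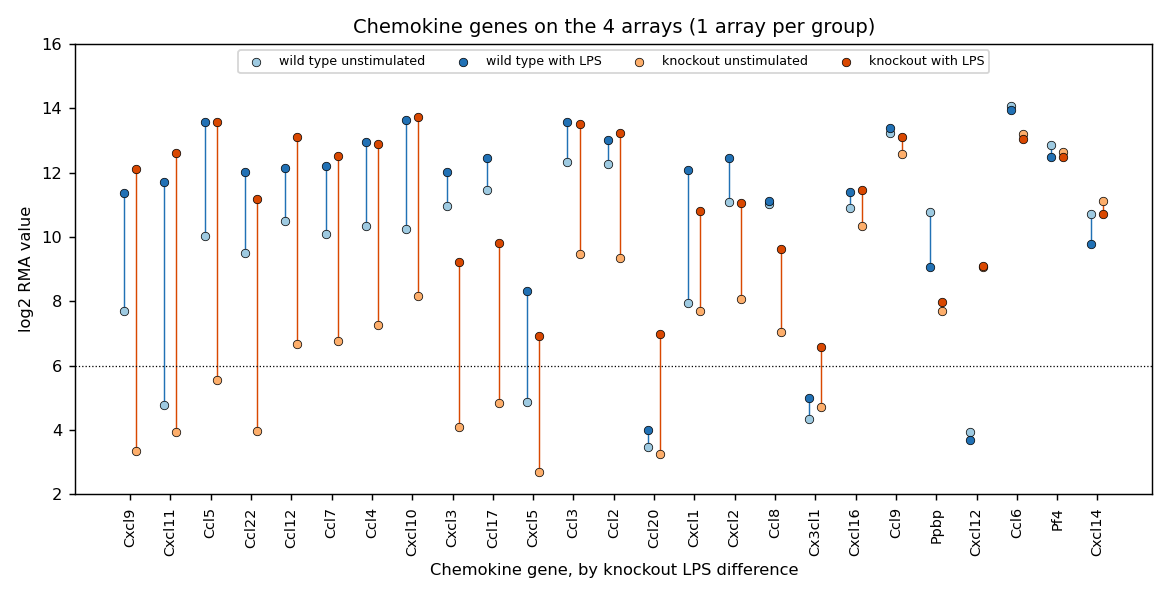
Log2 RMA values of the 25 chemokine genes past the floor on the 4 arrays, ordered by the knockout LPS difference, with lines joining the unstimulated and the LPS array of a genotype; the dotted line marks log2 6. For Cxcl9, Ccl5 and Ccl22 the knockout lines start at 3.34, 5.57 and 3.98 and end within 1 log2 unit of the wild-type value with LPS.

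Of 10 chemokine receptor genes 3 (30.0%) were called higher and 3 (30.0%) lower. Ccr7, which guides cells to lymph nodes, read 3.17 and 7.25, and the atypical receptor gene Ccrl2 7.61 and 11.66. The lower ones were Cxcr4 (-2.29), the receptor of Cxcl12, Cx3cr1 (-2.26), the fractalkine receptor, and Ccr2 (-1.21), the receptor of the monocyte chemokines. Of 24 cytokine receptor genes 4 (16.7%) were higher and 3 (12.5%) lower, near the shares of all genes, 11.0% and 15.5%. Il15ra read 5.02 and 10.53, and Il13ra1, a part of the interleukin 13 receptor, 7.45 and 9.67. The lower ones were Tgfbr1 (-1.51), Il6ra (-1.51) and Ifngr2 (-1.33), a chain of the interferon gamma receptor whose wild-type difference was 1.09. Csf1r was lower by less than 2-fold, at -0.96.

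IRF, STAT and JAK genes were called higher in 12 of 17 cases and lower in none, with a median of 1.68. Stat2, a part of the factor that type I interferon activates, read 6.87 and 10.43, and Irf7, the regulator that amplifies interferon production, 9.37 and 12.29. Irf1 differed by 2.72, from 8.91 to 11.63, where wild type went from 10.56 to 11.57. Jak2 differed by 2.36 and Stat5a by 1.99. Irf4, a factor linked to alternative activation, read 5.97 and 7.88 in the knockout and 9.85 and 9.57 in wild type. Irf3, which the TRIF branch activates as a protein, differed by -0.46.

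Antiviral interferon-stimulated genes were higher with few exceptions. Of 49 past the floor, which were all those measured, 44 were called higher and none lower, with a median of 3.60. The wild-type count was 43 and none, with a median of 3.12. Ifit1bl1, of the IFIT family that binds foreign RNA, read 5.37 and 12.37, and Ifit1 7.35 and 13.25. Oasl1, related to oligoadenylate synthetases, read 6.08 and 12.21, Cmpk2, a nucleotide kinase, 6.14 and 12.23, and Mx2, an antiviral GTPase, 4.33 and 10.39. For these 5 the wild-type differences were 6.18, 5.44, 5.00, 5.54 and 5.70, each smaller than in the knockout, where they ran from 5.90 to 6.997. These 5 are the largest knockout differences of the list, a choice that favours this order. Over the 49 genes the knockout difference lay above the wild-type one in 44, by log2 1 or more in 13. That compares with 47.7% of all genes and 79.3% of genes called higher in the knockout. The smallest differences were those of Ifi27l2a (12.79 and 12.84), Ifitm6 (7.26 and 7.62) and Ifitm3 (13.04 and 13.40), the Ifitm genes encoding membrane proteins that block virus entry.

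Interferon-inducible GTPases, which attack the vacuoles of intracellular pathogens, were called higher in all 11 measured cases. Their median difference was 4.64, and 2.37 in wild type, where 9 of the 11 were called higher. Iigp1 read 5.22 unstimulated and 12.17 with LPS, Gbp2b 6.06 and 12.85, Gbp6 5.05 and 11.41, and Gbp2 6.59 and 12.29. In wild type the same genes read 9.77 and 12.16, 9.77 and 12.28, 9.43 and 11.80, and 10.69 and 12.58. With LPS the median level of the 11 was 12.17 in the knockout and 12.04 in wild type, and unstimulated it was 6.97 and 9.70. Each of the 11 had a difference larger by log2 1 or more in the knockout. Gbp8 was the lowest, at 5.30 and 8.44, against 9.61 and 9.70.

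The core of the interferon-stimulated response element stands in most GTPase promoters and in a minority of the antiviral ones, and 5 that hold it are shown from both groups. The core was spelled as GAAA, any 2 bases and GAAA, and was searched on both strands in the same window. It was present in 3.46% of all 27025 genes, 9.41% of the 808 called higher, 18.1% of the 160 with an 8-fold or larger increase and 2.22% of the 1172 called lower. It was present in 7 of 8 GTPase genes and 10 of 40 antiviral genes with an entry. The capitals below show the core as it reads on the gene's own strand, where all 5 hold the reverse complement. It begins 137 bases before the start in Gbp2b, 59 in Gbp2, 85 in Ifit1, 104 in Ifit1bl1 and 122 in Ifit3. The stretches lie at chr3:142594695-142594734 and chr3:142620589-142620628 on the plus strand, chr19:34640789-34640828 on the plus strand, chr19:34602048-34602087 on the minus strand and chr19:34583392-34583431 on the plus strand. Genes without the core in this window lack these letters there and no more is implied.
Gbp2b: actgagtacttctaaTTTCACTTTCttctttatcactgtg
Gbp2: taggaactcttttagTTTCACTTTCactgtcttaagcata
Ifit1: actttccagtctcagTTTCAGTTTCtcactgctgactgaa
Ifit1bl1: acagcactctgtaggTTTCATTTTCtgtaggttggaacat
Ifit3: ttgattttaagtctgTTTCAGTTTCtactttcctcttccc

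PYHIN genes, sensors and regulators that bind DNA, were called higher in all 8 cases, with a median of 3.15 against 2.16 in wild type. Ifi213 read 5.35 and 11.03. Ifi202b read 8.86 and 12.83 in the knockout and 3.65 and 5.41 in wild type, so the array of wild-type cells stayed under the floor with LPS. Aim2, the inflammasome sensor of DNA, differed by 1.21. Some members of this family are close copies of each other, as are some GTPase genes, and their probe sets can cross-hybridise.

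Antigen presentation differed between the classes. In MHC class I processing 8 of 17 genes (47.1%) were called higher and none lower, against 11.0% and 15.5% of all genes, with a median of 0.91. Tap1 and Tap2, the peptide transporter, read 8.99 and 12.01, and 7.47 and 9.82. Nlrc5, the activator of class I genes, differed by 2.93 and the immunoproteasome subunit Psmb9 by 1.92. The chains B2m (13.72 and 13.87) and H2-D1 (12.92 and 12.88) were bright on both arrays. In MHC class II presentation 1 of 9 genes past the floor (11.1%) was higher and 1 (11.1%) lower, near the shares of all genes. H2-Aa, H2-Ab1 and H2-Eb1 differed by 0.10, -0.08 and 0.01, at levels between 9.57 and 9.89 in the knockout and between 12.22 and 12.49 in wild type. Rfx5, a factor for class II promoters, was the higher one (1.15) and H2-DMb2, a peptide exchange chain, the lower one (-1.13).

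Costimulatory and checkpoint ligands were called higher in 15 of 19 cases and lower in 2, with a median of 2.39, against 10 and 2 with a median of 1.38 in wild type. Cd40, the receptor through which T cells activate macrophages, read 8.18 and 13.58, and the activation marker Cd69 7.45 and 12.75. Cd86, a ligand of CD28, read 7.61 and 11.65, and Cd274, the checkpoint ligand PD-L1, 9.55 and 12.60. Wild-type Cd274 began at 12.09 and read 12.71 with LPS, so its difference there was 0.62. Vsir (-2.33), an inhibitory ligand, and Havcr2 (-1.42), which encodes TIM-3, were the lower ones, with -3.10 and -1.88 in wild type.

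Genes of inflammasomes and cell death were called higher in 9 of 21 cases (42.9%) and lower in 1 (4.76%), against 11.0% and 15.5% of all genes. Casp4, the sensor of cytosolic LPS, read 6.37 and 10.39, and Mlkl, the effector of necroptosis, 8.28 and 11.74. The death receptor Fas differed by 3.02, Cflar, an inhibitor of caspase 8, by 2.53 and Nlrp3, an inflammasome sensor, by 2.51. Bcl2, the anti-apoptotic gene, was the lower one at -1.46, and Bcl2l11, which encodes the pro-apoptotic BIM, differed by -0.91.

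**Figure D4:**
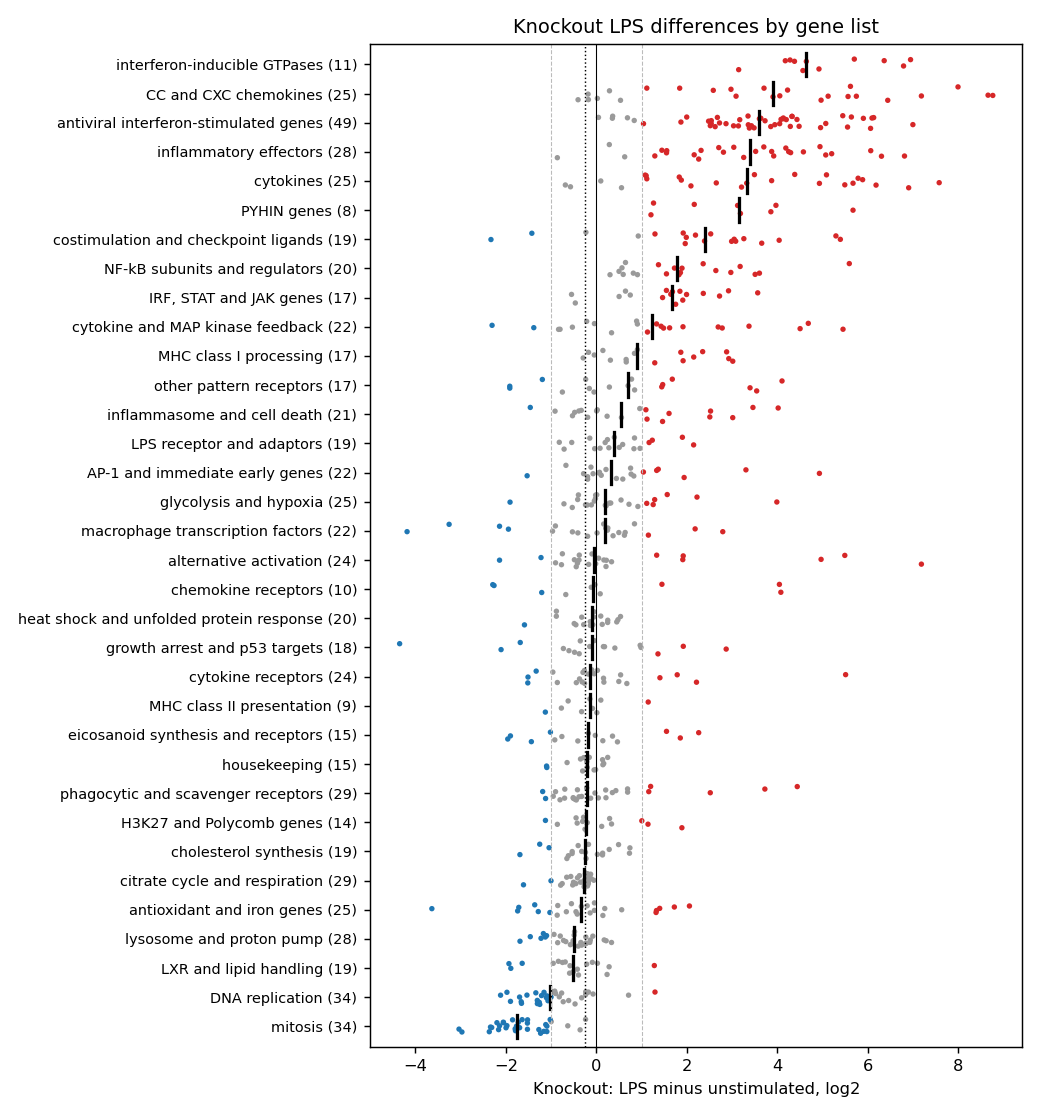
Knockout LPS differences (log2) of the genes past the floor in each of 34 gene lists, with 1 point per gene, black bars at list medians and the number of genes in brackets; red and blue points are called higher and lower, and the dotted line is the median of all 9122 genes. The GTPase list has the highest median (4.64) and the mitosis list the lowest (-1.74).

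Macrophage transcription factors included one of the lowest values of the response. Cebpa, a factor of myeloid differentiation, read 12.46 unstimulated and 8.28 with LPS, a difference of -4.18 against -2.46 in wild type. Rxra, the partner of several nuclear receptors, read 9.49 and 6.24, Pparg, a lipid-sensing nuclear receptor, 8.02 and 5.88, and Tfeb, a regulator of lysosome genes, 6.35 and 4.41. Cebpb and Cebpd went the other way, from 8.15 to 10.95 and from 7.10 to 9.29, and Tfec was the third higher one (1.15). Of the 22 genes past the floor 3 (13.6%) were thus higher and 4 (18.2%) lower, near the shares of all genes, 11.0% and 15.5%.

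Phagocytic and scavenger receptors were called higher in 5 of 29 cases (17.2%) and lower in 2 (6.9%), against 11.0% and 15.5% of all genes. Timd4, a receptor for phosphatidylserine, read 4.32 and 8.76 in the knockout and stayed under the floor in wild type at 3.94 and 4.53. Olr1, an oxidised lipoprotein receptor, read 7.50 and 11.23, and Fcgr4, an activating Fc receptor, 8.87 and 11.39. Trem2 (-1.19), a lipid-sensing receptor, and Sirpa (-1.12), the receptor for CD47, were the lower ones. Of 24 alternative activation genes 6 were called higher and 2 lower. Beside Ccl22, Il10, Irf4 and Myc, the higher ones were Ccl17, a chemokine read at 4.84 and 9.80 against 11.47 and 12.44, and Pdcd1lg2, the checkpoint ligand PD-L2, at 4.83 and 6.75 against 9.79 and 10.10. Pparg and Atp6v0d2 (-1.22), a proton pump subunit, were the lower ones.

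Among glycolysis genes 6 of 25 were called higher and 1 lower: the hexose transporter gene Slc2a6 read 6.36 and 10.35, Pfkfb3, which raises glycolytic flux, 8.61 and 10.84, while the related Pfkfb4 differed by -1.91. Of 29 genes of the citrate cycle and respiration 2 (6.9%) were lower, and the list median of -0.26 equalled that of all genes. The 2 were Idh1 (-1.61), the cytosolic isocitrate dehydrogenase, and Aco1, an iron-regulated aconitase at the 2-fold line. Of 28 lysosomal genes 6 (21.4%) were lower, against 15.5% of all genes, with a median of -0.50. Subtracting the median of all genes left 2 of them lower. Among the 6 were the proton pump subunit Atp6v0a1 (-1.69) and the cholesterol transporter Npc1 (-1.46).

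Genes of cholesterol synthesis and of LXR signalling and lipid handling were called lower about as often as all genes (15.5%). Of 19 cholesterol synthesis genes it was 3 (15.8%), Dhcr7 (9.48 and 7.79), Stard4 (-1.25) and Mvd (-1.04), with a median of -0.24. In wild type it was 6, with a median of -0.77, and Dhcr7 there read 10.32 and 7.36. Of 19 genes of LXR signalling and lipid handling 3 were lower, again 15.8%, the exporter Abca1 (10.54 and 8.61), the apolipoprotein gene Apoc2 (-1.89) and the desaturase gene Scd2 (-1.64), and the regulator Srebf1 was higher (1.28). Eicosanoid genes were higher in 3 of 15 cases and lower in 4, against 11.0% and 15.5% of all genes. The list is small, and whether its counts differ from those shares was not tested. The prostaglandin E synthase Ptges, a higher one, read 5.32 and 7.59, and the prostaglandin receptor Ptger2, a lower one, 8.21 and 6.25.

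Antioxidant and iron genes were higher in 5 of 25 cases and lower in 6, where wild type had 4 and 1. Slc40a1, the iron exporter ferroportin, read 11.43 and 7.79, and the subunits of the glutathione-making ligase, Gclc and Gclm, 8.06 and 6.32, and 10.63 and 8.92. Hmox1, heme oxygenase 1, read 12.27 and 10.99 in the knockout and 12.99 and 12.96 in wild type. Slc11a2, an iron importer, read 6.83 and 8.89. Of 20 heat shock and unfolded protein genes, 1 (5.0%) differed by 2-fold, against 26.5% of all genes either way. It was Trib3 (-1.59), a stress-induced pseudokinase.

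Mitosis genes were the most uniformly lower group. Of 34 past the floor 30 were called lower and none higher, with a median of -1.74, and of -1.72 over all 35 measured. In wild type it was 29, with a median of -1.79. Cdc25b, the phosphatase that starts mitosis, read 9.19 unstimulated and 6.16 with LPS, Ccnf, cyclin F, 8.52 and 5.55, and the kinesin gene Kif20a 8.67 and 6.33. The highest values of the list were those of Tpx2 (-0.24), a spindle protein, and Cenpe (-0.36), a motor of the kinetochore. The median level of the 34 genes was 8.70 unstimulated and 6.89 with LPS in the knockout, against 7.54 and 5.29 in wild type. The median difference was thus close to the wild-type one from a higher start, and the part of the granulocyte precursor and stromal RNA of the knockout arrays in these levels was not tested.

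DNA replication genes were lower in 18 of 34 cases and higher in 1, with a median of -1.03. Gmnn, an inhibitor of replication licensing, read 9.85 and 7.74, Tk1, thymidine kinase, 9.69 and 7.72, and E2f8, a repressor of cell cycle genes, 8.52 and 6.62. Pcna, the polymerase clamp, read 12.82 and 12.64. Rfc3, a clamp loader subunit, was the higher one (7.22 and 8.52). Of 18 growth arrest genes 3 (16.7%) were higher and 3 lower, near the shares of all genes. Sesn1, a stress-responsive p53 target, read 10.25 and 5.90, and Cdkn2c, an inhibitor of cyclin-dependent kinases, 8.25 and 6.15. Ccnd2, cyclin D2, read 8.91 and 11.78, and Ccnd1, cyclin D1, 10.01 and 11.37, against 8.97 and 8.27 in wild type.

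Promoters of the mitosis genes held the CCAAT letters in 22 of 28 cases with an entry, and those of replication genes in 16 of 28, against 37.5% of all 27025 genes, 40.2% of the 7454 past the floor and 45.4% of the 1172 called lower. The E2F letters TTTNGCGC were in 5 of 28 replication genes against 1.31% of all genes, 2.59% of those past the floor and 2.82% of those called lower. Both strands were searched. Of the mitosis genes that hold the CCAAT letters, 4 with large decreases are shown, each with its match nearest the start. In 3 of them the capitals hold the reverse complement. The match begins 28 bases before the start in Cdc25b, 107 in Ccnf, 113 in Bub1b, a spindle checkpoint kinase, and 12 in Racgap1, which acts in the division of the cell body. The stretches lie at chr2:131186905-131186939 on the plus strand, chr17:24251497-24251531 on the minus strand, chr2:118598083-118598117 on the plus strand and chr15:99651657-99651683 on the minus strand.
Cdc25b: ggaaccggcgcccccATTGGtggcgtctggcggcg
Ccnf: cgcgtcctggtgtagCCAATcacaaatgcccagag
Bub1b: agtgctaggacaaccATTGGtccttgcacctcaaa
Racgap1: atgagctcctctgtgATTGGctggtgc

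Polycomb and H3K27 genes were called higher in 3 of 14 cases (21.4%) and lower in 1 (7.14%), against 11.0% and 15.5% of all genes. Aebp2 and Jarid2, accessory parts of the methylating complex PRC2, read 10.10 and 11.99, and 9.19 and 10.33. Kdm6b was at the 2-fold line (1.01). Ezh2, the methyltransferase of PRC2, read 8.38 and 7.25, while Kdm6a, the related demethylase, differed by -0.28. Housekeeping genes differed by between -1.10 and 0.25, with Actb at 13.60 and 13.76 and a median of -0.20.

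Among the 25 highest differences, 21 were of genes in the lists, 18 started under the floor and 24 were also called higher in wild type. The others were BC023105, Lipg, Pou3f1 and Gm4951. BC023105 read 2.89 and 9.04 in the knockout and stayed under the floor in wild type, at 3.29 and 4.10. Lipg, endothelial lipase, read 4.14 and 10.18 against 4.01 and 7.49, and Pou3f1, a POU domain transcription factor, 2.48 and 8.40 against 3.41 and 7.81. Gm4951 read 5.73 and 11.51 against 9.43 and 11.62, the low unstimulated start seen for the GTPases.

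Among the 25 lowest differences, 3 were of genes in the lists, 19 ended under the floor and 24 were also called lower in wild type. Arhgap19 read 11.06 and 6.28, and Pald1, which encodes paladin, 8.90 and 4.12. Slc46a3, a lysosomal transporter, read 8.75 and 4.27, Rnf144b, a ubiquitin ligase, 10.23 and 6.13, and Tpcn1, an endolysosomal ion channel, 8.93 and 4.90. Receptor genes were among them, with Gpr34 at 7.83 and 3.85 and the cannabinoid receptor gene Cnr2 at 7.38 and 3.52. Gpr155 read 8.52 and 4.77 in the knockout and 7.64 and 7.12 in wild type, the 1 of the 25 that was not 2-fold lower there. Of the 1415 lower genes 1310 belonged to none of the lists, and of the 1006 higher genes 754, so the lists describe a part of the response.

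**Figure D5:**
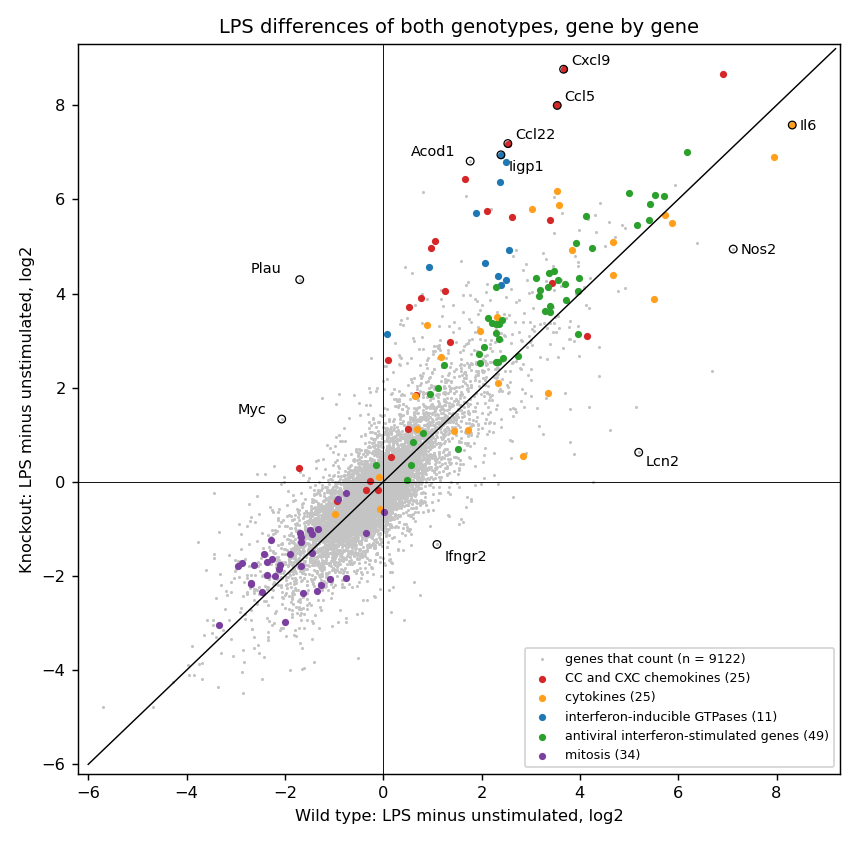
LPS differences (log2) of the 9122 genes in wild type (x) and knockout (y), with the line of equal differences and colours for 5 gene lists. All 11 GTPase genes and 23 of 25 chemokine genes lie above the line, Il6 (8.32 and 7.58) and Nos2 (7.12 and 4.94) lie below it, and Plau, Myc and Ifngr2 have opposite signs in the 2 genotypes.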

How the data were processed

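Total RNA of the 4 cultures was extracted with Trizol and labelled with biotin (NuGEN Ovation), per the labels' protocols. The authors deposited log2 values per probe set made with RMA, per the submitters' processing notes; the sources used here do not give its version or background model. Of 45101 probe sets, 64 controls, 932 with several gene names and 9160 without a name were left out. The other 34945 gave 18193 genes, with 34741 probe sets matched to RefSeq GRCm38.p6. The brightest probe set stood for its gene, the floor was log2 6 and the call 2-fold. With 1 array per group no spread between samples and no p-value could be had. Counts and medians were computed with Python 3.11.15, numpy 2.4.6 and pandas 2.3.3 and plotted with matplotlib 3.10.9; the counting was tested on simulated data.

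The members, gene lists and promoter motifs were chosen with earlier results of these data known. The 34 pathway lists held 858 entries, of which 784 were measured, and the 7 marker lists 134, of which 119 were. Named by rule were Kdm6b, the 25 highest and 25 lowest differences, and in each list the 5 highest and 5 lowest. For marker lists these were the 5 brightest. Others, such as Tnf, Ifnb1, Nos2, Ccl4, Ccl7, Cxcl10, Cxcl3, Cxcl1, Ccl20, Cd14, Cd274, Nfkbia, Ifit3, Bub1b, Racgap1, Pcna, Kdm6a, Adgre1, Mpo, Mmp8, Vcam1 and Plau, were chosen after their values were seen. Promoters (32851 windows of 27025 genes) came from RefSeq, and 7454 of the 9122 genes had an entry. The stretches printed were picked by size of difference among list genes that hold the motif, and genes on chr18 were left out of that pick. Alternatives were the floor, the choice of probe set, centring, quantile normalization of the knockout arrays and an amount added to the linear value.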

Additional observations from a re-analysis of the deposited data

Results flagged for a closer look

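Genes with a 2-fold difference in each genotype but with opposite signs were singled out, and the difference between the genotypes was not tested for any of them. Plau, the urokinase-type plasminogen activator, had a difference of 4.30 in the knockout, from 5.36 unstimulated to 9.65 with LPS, and of -1.70 in wild type, from 9.77 to 8.08. Rnase6, a secreted ribonuclease, had 1.79 and -1.24, from 6.03 to 7.82 and from 7.18 to 5.93. Myc had 1.33 and -2.06. Ifngr2 had -1.33 in the knockout and 1.09 in wild type.

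Probe sets with no gene name or several, which entered no comparison, also differed with LPS in the knockout. Of 1698 past the floor, 272 had a 2-fold or larger increase and 230 (13.5%) a decrease of that size, with a highest value of 6.87 and a lowest of -4.35. In wild type 196 of the 272 and 124 of the 230 differed by 2-fold the same way.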

How the results depend on the processing

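The counts of higher genes stayed within 1.5 times the main one of 1006 under all 10 alternatives, and that of lower genes did so except for 783 with a floor of log2 8 and 745 with 64 added to the linear values, in place of 1415. Lower replication genes numbered 11 with a floor of log2 8, 11 after centring on the median and 9 with 64 added, in place of 18, and lower lysosomal genes 2 after centring, in place of 6. The cholesterol list's median turned from -0.24 to 0.017 after centring. The cause was not tested, beyond that a higher floor leaves fewer genes and centring adds 0.26. The share of higher among called genes was 41.6%, but 56.9% after centring, 49.8% with a floor of log2 8 and 51.6% with 64 added. Kdm6b fell short of 2-fold with the mean of its probe sets (0.47), without less specific probe sets (0.72), after quantile normalization (0.95) and with 64 added (0.96). Of 397 named genes 224 were called, and 36 of these fell short of 2-fold under an alternative, in 56 cases in all; none of the 224 changed sign. No paired analysis was possible because each group had 1 array, which also leaves no replicate to leave out. Low signals limit every difference that starts or ends under the floor.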

Other observations

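Gene families were grouped by symbol after their values were seen, and overlap the lists: schlafen, TRIM and polymerase genes the antiviral one, kinesins the mitosis one. All 8 schlafen genes past the floor, interferon-inducible regulators of RNA and growth, were 2-fold or more higher, with a median of 3.28, and 7 were in wild type. Of 10 poly(ADP-ribose) polymerase genes past the floor 7 were higher and 1 lower, and of 31 TRIM genes 12 were higher and 4 lower. Of 21 kinesin genes, motor proteins that include mitotic ones, 11 were lower and 1 higher. Orphan and related Gpr receptor genes were lower in 10 of 21 cases and higher in 5, and zinc finger genes named Zfp lower in 38 of 154 and higher in 6. Ribosomal protein genes stayed near the centre, with 1 of 49 lower and a median of -0.22. Rab genes were higher in 6 of 46 cases and lower in 5, and ubiquitin-specific proteases in 5 and 3 of 37. The shares for all 9122 genes were 11.0% higher and 15.5% lower.

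For a pair of genes, probe sets differed by 2-fold or more in opposite directions on the knockout arrays. For Ankrd17 the brightest probe set had 1.41 and another -3.05, from 8.71 to 5.66. For Pacc1 the brightest had 1.32 and 3 others -2.55, -2.36 and -1.98. Both genes stand among the higher ones through their brightest probe set.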
